A study of Homo sapiens with 4 samples.

Results

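The genes described here are 44 genes of pre-mRNA splicing: SR proteins, the kinases that phosphorylate them, SR-related proteins of nuclear speckles, and proteins of the spliceosomal small nuclear ribonucleoproteins (snRNPs). They were found by their gene symbol among the 56303 genes of the deposited count table, and all 44 were present and had enough reads to be tested. The symbols were chosen with earlier results of these libraries in view, so the circ and vector values of the members are given as a description and support nothing. The members fall by function into 10 SR proteins, 6 SR protein kinases, 12 SR-related and speckle regulators, 12 core snRNP proteins and 4 snRNP-associated factors, and the comparison of interest sets the SR proteins with their kinases beside the core snRNP proteins.

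Bulk libraries of total RNA came from EJ and T24T, established lines of human bladder cancer, T24T being known as a derivative of the line T24. The 4 groups were T24T cells given the circular RNA circ0008399 by transfection (T24T circ), T24T cells given vector (T24T vector), EJ cells given circ0008399 (EJ circ) and EJ cells given vector (EJ vector), with 1 library in each. No time after transfection is given in the labels. Totals were 14703455 counts in EJ circ, 15639289 in EJ vector, 18057768 in T24T circ and 16864247 in T24T vector. Within a line no difference has a replicate check, and the only repeat of the transfection is the other line. The 8 luminal urothelial markers summed to between 106 and 147 counts per library, with UPK3A at 0, and the 6 basal markers to between 10528 and 17758, nearly all CD44 and EGFR, with KRT5 at 0. The 5 epithelial markers summed to 15246 in EJ circ against 13900 in EJ vector, and 33512 in T24T circ against 29838 in T24T vector, with CDH1 at 0 to 3. The 3 mesenchymal markers VIM, CDH2 and FN1 summed to 12862 in EJ circ against 15039 in EJ vector, and 23112 in T24T circ against 35065 in T24T vector, and their part in the results was not tested. The leukocyte marker list summed to 217 counts in EJ circ against 162 in EJ vector, and 1112 in T24T circ against 952 in T24T vector, nearly all of them CD68, which other cells also express, while PTPRC and CD3E were at 0 in all libraries. RBM3, from whose exons this circular RNA is known to derive, had 16010 counts in EJ circ against 4361 in EJ vector, and 13240 in T24T circ against 4641 in T24T vector, and gene counts do not separate circular from linear RNA.

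SR proteins bind exonic sequences of a new transcript through RNA recognition motifs and recruit the splicing machinery through a tail rich in arginine and serine, the RS domain. CLK kinases in the nucleus and SRPK kinases, largely in the cytoplasm, phosphorylate that tail and so set where SR proteins sit and when they act. The core snRNP proteins, by contrast, are fixed parts of the machine that recognises the splice sites and carries out both cutting steps. Many SR protein genes are known to hold their own level through poison exons, and CLK1 and CLK4 transcripts are known to be kept in part in the nucleus with retained introns. Counts per gene add all such isoforms together.

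Promoter sequences are shown for the member of each functional class whose circ and vector libraries differed most among those with a promoter in the RefSeq table (GRCh38.p14), since these are the genes the description turns on. RefSeq listed a promoter for 38 of the 44 members. Each run gives the 250 bases before the start, 5′ to 3′ on the gene's own strand, and capitals mark matches to the ETS core CCGGAAG or the CCAAT box CCAAT on either strand. In the gene coordinates used here, CLK4, SF3A3 and U2AF2 begin upstream of their windows and PNN begins inside its own. SRSF7 lies on the minus strand at chr2:38751495-38751744, CLK4 on the minus strand at chr5:178627051-178627300, PNN on the plus strand at chr14:39175004-39175253, SF3A3 on the minus strand at chr1:37990023-37990272 and U2AF2 on the plus strand at chr19:55654785-55655034.
SRSF7: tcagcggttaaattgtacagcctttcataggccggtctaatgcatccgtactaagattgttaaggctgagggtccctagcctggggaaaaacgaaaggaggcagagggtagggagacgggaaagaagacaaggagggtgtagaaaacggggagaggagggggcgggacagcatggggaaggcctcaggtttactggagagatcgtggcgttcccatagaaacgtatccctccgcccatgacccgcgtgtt
CLK4: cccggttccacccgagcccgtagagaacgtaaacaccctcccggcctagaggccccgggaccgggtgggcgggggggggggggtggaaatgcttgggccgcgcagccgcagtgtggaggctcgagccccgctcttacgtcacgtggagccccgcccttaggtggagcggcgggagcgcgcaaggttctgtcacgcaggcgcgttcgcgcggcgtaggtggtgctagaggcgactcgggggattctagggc
PNN: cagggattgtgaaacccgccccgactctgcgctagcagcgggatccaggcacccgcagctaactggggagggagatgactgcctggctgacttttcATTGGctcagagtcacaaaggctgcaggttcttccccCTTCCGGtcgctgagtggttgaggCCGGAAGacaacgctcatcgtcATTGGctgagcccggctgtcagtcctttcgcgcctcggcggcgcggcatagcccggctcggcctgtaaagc
SF3A3: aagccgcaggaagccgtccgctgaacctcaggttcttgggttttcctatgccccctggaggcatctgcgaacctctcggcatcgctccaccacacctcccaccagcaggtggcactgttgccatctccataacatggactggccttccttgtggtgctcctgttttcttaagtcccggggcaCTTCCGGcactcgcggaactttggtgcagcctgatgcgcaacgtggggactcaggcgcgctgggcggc
U2AF2: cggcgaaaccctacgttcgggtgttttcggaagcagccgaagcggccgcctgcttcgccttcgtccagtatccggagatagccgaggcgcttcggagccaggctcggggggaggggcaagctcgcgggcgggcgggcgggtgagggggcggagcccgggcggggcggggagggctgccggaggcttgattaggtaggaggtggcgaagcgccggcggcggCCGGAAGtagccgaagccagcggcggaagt

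The PNN promoter held the ETS core at -117 and -93 and the CCAAT box at -154 and -71, counted back from the start. SF3A3 held the ETS core at -68 and U2AF2 at -30. Neither motif was in the windows of SRSF7 and CLK4. The 38 matched members have 50 listed promoters. The ETS core was in 11 of these 50, against 13.8% of the 15042 promoters of tested genes and 8.52% of all 35116 promoters. These belong to 11 members, 2 SR proteins, 0 kinases, 2 SR-related genes, 5 core snRNP genes and 2 snRNP-associated genes. The CCAAT box was in 12 of the 50, against 32.8% of the promoters of tested genes. The cyclic AMP element TGACGTCA (in 2.41% of those promoters), the NRF1 motif (1.67%) and the YY1 motif (0.572%), searched on both strands, were in 0 member promoters. A palindromic CGCG element (0.658%) was in that of SRSF10. The letters TATAAA were in 5.89% of the promoters of tested genes and in 3 of the 50, a share close to that background. All 3 were of SR proteins. SRSF7, at its other listed start (chr2:38751362-38751421, minus strand), and SRSF3 (chr6:36594302-36594361, plus strand) held them on their own strand, with the first base at -27 in SRSF7 and -30 in SRSF3. The last 60 bases before each of these starts are printed, with the element in capitals. They are shown because these paralogous SR protein genes carried it at a like distance, which was not tested. In the gene coordinates used here, SRSF7 begins upstream of this window and SRSF3 begins inside its own. In SRSF11 the match was on the opposite strand at -206.
SRSF3: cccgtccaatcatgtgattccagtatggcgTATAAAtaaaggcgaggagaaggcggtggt
SRSF7: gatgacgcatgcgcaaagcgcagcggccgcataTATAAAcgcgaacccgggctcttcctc

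All 44 members were expressed in both lines, from 372 counts for CLK4 in EJ vector upwards. Together they took 1.64% of counts in EJ circ and 1.43% in EJ vector, and 1.31% in T24T circ and 1.15% in T24T vector. Levels were compared per kilobase of gene length, on the authors' RPKM scale. Among SR proteins SRSF11 averaged 81.8 RPKM over the libraries, SRSF4 70.3, SRSF1 68.0 and SRSF9 67.5, and the ranges of these 4 genes over the libraries overlapped. SRSF7 followed at 42.2, SRSF5 at 35.8, SRSF3 at 29.1, SRSF2 at 26.2, SRSF6 at 25.7 and SRSF10 at 16.1 RPKM. Among the kinases SRPK1 averaged 28.2 RPKM, CLK1 25.6, CLK2 19.8, SRPK2 12.7, CLK4 3.57 and CLK3 2.76. Among SR-related genes PNN led with 152 RPKM and LUC7L was last with 5.57. PRPF31, a tri-snRNP protein gene, had 208 RPKM, the highest mean of all members, and 32.0% of its exon bases lie inside exons of other genes, chiefly AC012314.8 on the opposite strand. In the remaining core class the means ran from 109 RPKM for SNRNP70 down to 15.1 for PRPF3.

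**Figure D1:**
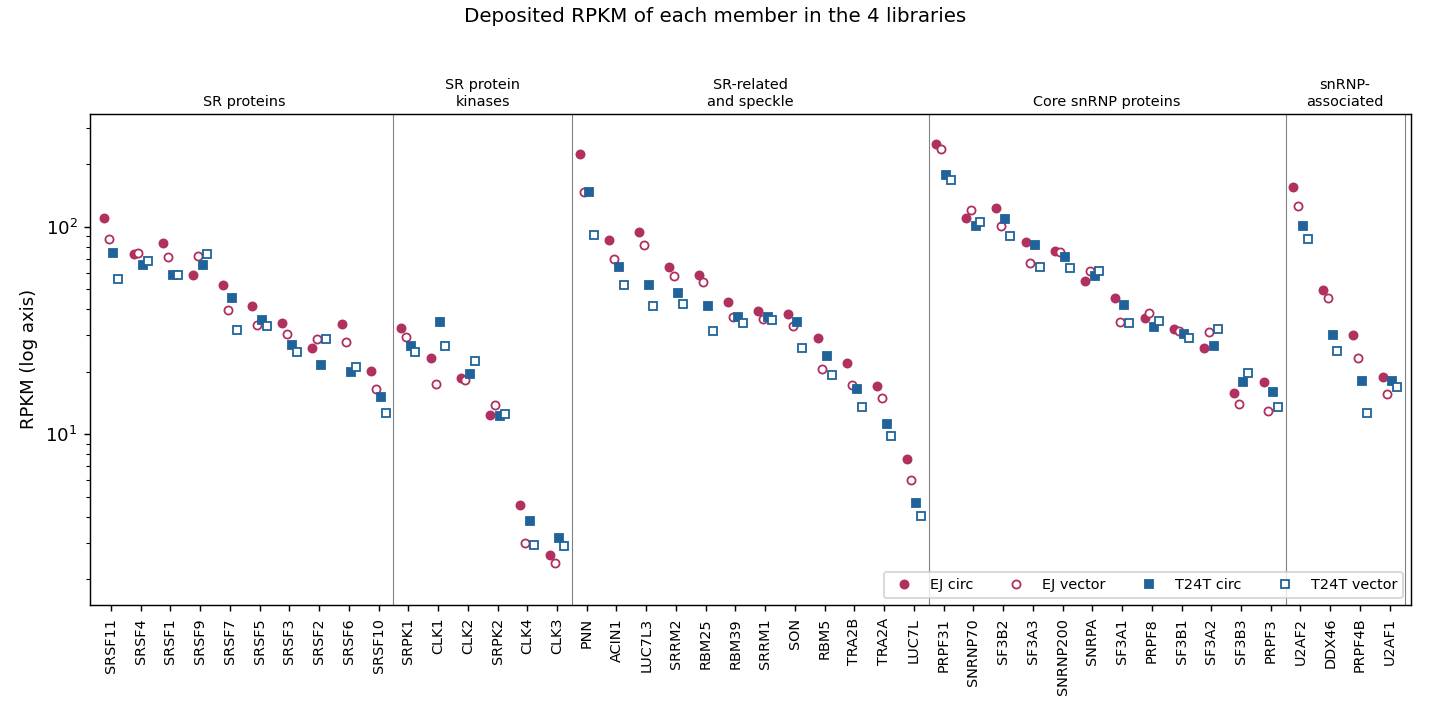
RPKM of each of the 44 members (log axis) in the 4 libraries, grouped by function; filled symbols are circ, open symbols vector, circles EJ and squares T24T. PNN runs from 91.2 RPKM in T24T vector to 223 in EJ circ, and CLK3 and CLK4 lie lowest.

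Between circ and vector, all 12 SR-related genes and all 4 snRNP-associated genes were above 0 in both lines, while SR proteins and core snRNP proteins were split. In bulk libraries fewer cells of a type and less RNA per cell cannot be told apart. The class medians of the log2 ratio of circ over vector were 0.26 in EJ and 0.08 in T24T for SR proteins, 0.14 and 0.14 for the kinases, 0.23 and 0.32 for SR-related genes, 0.07 and 0.09 for core snRNP proteins, and 0.30 and 0.25 for snRNP-associated factors. The 16 SR proteins and kinases together had medians of 0.21 in EJ and 0.12 in T24T, beside the core values just given. Averaged over the lines, the median was 0.17 for the 10 SR proteins and 0.08 for the 12 core proteins. Without the members that share 10% or more of their exon bases with other genes it was 0.22 for the other 7 SR proteins and 0.13 for the other 10 core proteins. Over all 17689 tested genes the median ratio was 0.00 (EJ) and 0.01 (T24T). Of the 44 members, 33 were higher in circ in both lines, 8 lower in both and 3 on opposite sides; among all tested genes these shares were 33.4%, 32.3% and 33.8%. The 5604 tested genes with mean counts within the range of the members had 39% higher and 34.5% lower in both lines. In the edgeR quasi-likelihood fit across all genes, with cell line as a block, 18 members were called higher and 1 lower, where 7.13% of all tested genes were called higher and 5.56% lower (13.2% and 9.28% in the members' depth range). Since results of this same contrast were known when the members were picked, nothing is read from these counts. DESeq2 called 7 higher, SRSF7, SRSF11, CLK1, PNN, RBM5, SF3A3 and PRPF4B, and 0 lower (1.05% and 0.882% of all tested genes; 19 members at an unadjusted p under 0.05). Without the replicate block of cell line edgeR called 0 members (3 at an unadjusted p under 0.05), as did limma on log2(RPKM + 1) with the block (21).

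**Figure D2:**
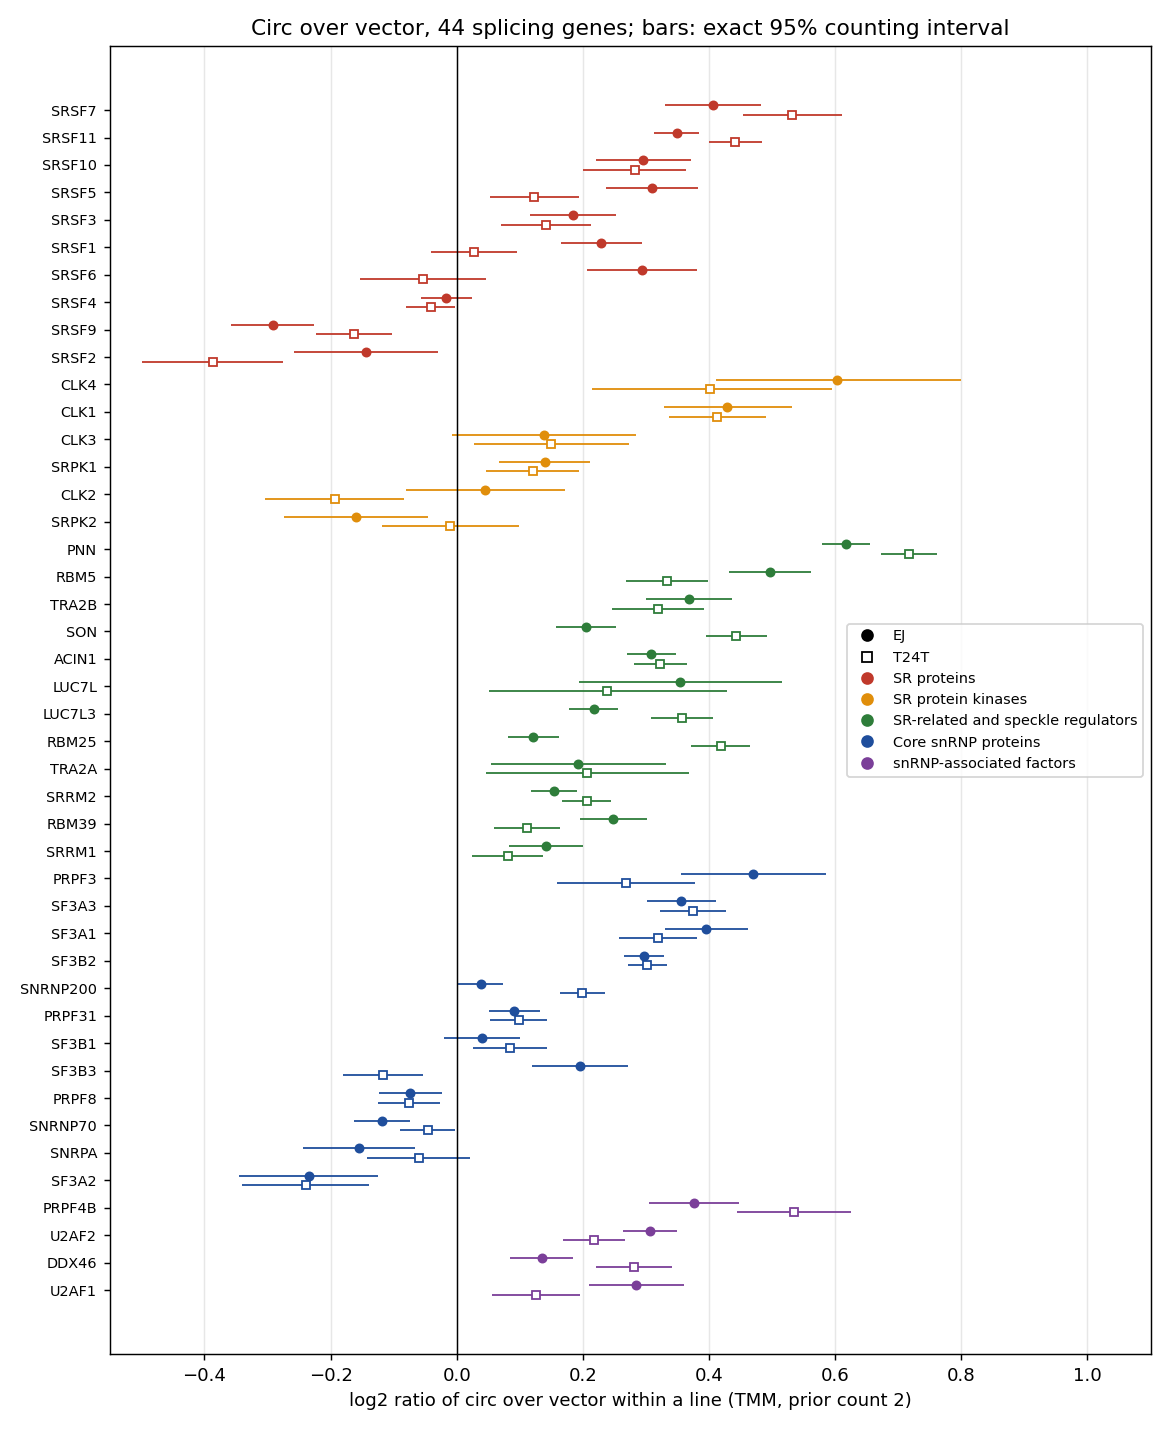
Log2 ratio of circ over vector for the 44 members, filled circles in EJ and open squares in T24T, with exact 95% binomial intervals that cover counting error only. PNN is farthest right in T24T at 0.72, and SRSF2 farthest left at -0.39.

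Among the SR proteins, 6 were higher in both lines, 3 lower in both and 1, SRSF6, on opposite sides, at 0.29 (EJ) and -0.05 (T24T, with a counting interval that includes 0). SRSF7, a small SR protein with a zinc knuckle, had 3119 counts in EJ circ against 2517 in EJ vector, and 3290 in T24T circ against 2160 in T24T vector. After scaling it was 1.33-fold higher in EJ and 1.45-fold higher in T24T, and the edgeR log2 fit was 0.47 ± 0.08 (SE, n = 2 lines). SRSF11, grouped here with the SR proteins, is an SR-related protein with an RS domain that works near the 3′ splice site. It had 13698 counts in EJ circ against 11504 in EJ vector, and 11422 in T24T circ against 7982 in T24T vector. That is 1.27-fold in EJ and 1.36-fold in T24T. SRSF10, known as a splicing repressor when dephosphorylated in heat shock and mitosis, had 3034 counts in EJ circ against 2643 in EJ vector, and 2808 in T24T circ against 2192 in T24T vector, with folds of 1.23 and 1.22.

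These 3 genes were the SR proteins called higher. SRSF5 (log2 0.31 in EJ and 0.12 in T24T), SRSF3 (0.18 and 0.14) and SRSF1 (0.23 and 0.03), the prototype SR protein, were above 0 in both lines without a call. For SRSF1, 23.1% of exon bases lie inside exons of other genes, chiefly RP11-159D12.6 on the opposite strand. The log2 ratios of that gene were 0.22 (EJ) and 0.07 (T24T), and reads of this pair may not be told apart. SRSF4 had 9614 counts in EJ circ against 10402 in EJ vector, and 10436 in T24T circ against 10195 in T24T vector, with log2 ratios of -0.02 and -0.04.

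SRSF2, also called SC35 and long used to mark nuclear speckles, was the 1 member called lower. It had 1149 counts in EJ circ against 1358 in EJ vector, and 1175 in T24T circ against 1458 in T24T vector. The fold was 0.905 in EJ and 0.765 in T24T. It was not called with the stricter filter of 50 counts or by DESeq2. SRSF9 had 3234 counts in EJ circ against 4235 in EJ vector, and 4391 in T24T circ against 4666 in T24T vector, with log2 ratios of -0.29 and -0.16. It was not called with TMM scaling, and was called lower with RLE or library-size scaling and by limma-voom. Of the exon bases of SRSF2, 36.7% lie inside exons of other genes, chiefly MFSD11 on the opposite strand, and 46.2% of those of SRSF9, chiefly GATC. The ratios of MFSD11 itself were -0.11 (EJ) and -0.26 (T24T), and those of GATC -0.08 and -0.24. The use of strand in counting is not given in the sources used here, so reads of these pairs may not be told apart.

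Of the kinases, CLK1, CLK4, CLK3 and SRPK1 were higher with circ in both lines. CLK1 and CLK4 were called higher and the other CLK genes were not called. CLK1, a dual-specificity kinase that phosphorylates SR proteins in the nucleus, had 1778 counts in EJ circ against 1412 in EJ vector, and 3256 in T24T circ against 2321 in T24T vector. It was 1.35-fold higher in EJ and 1.33-fold higher in T24T (log2 fit 0.42 ± 0.08, n = 2 lines). CLK4, its closest relative, had 529 counts in EJ circ against 372 in EJ vector, and 545 in T24T circ against 391 in T24T vector. Its folds were 1.52 in EJ and 1.32 in T24T, and the counting interval of its log2 ratio, 0.41 to 0.80 (EJ) and 0.21 to 0.60 (T24T), overlapped that of CLK1 in each line.

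CLK3 had 784 counts in EJ circ against 762 in EJ vector, and 1169 in T24T circ against 1000 in T24T vector, with log2 ratios of 0.14 and 0.15. CLK2 had 1011 counts in EJ circ against 1048 in EJ vector, and 1288 in T24T circ against 1398 in T24T vector. Its log2 ratio was 0.05 in EJ, with an interval that includes 0, and -0.19 in T24T. The cytoplasmic kinase gene SRPK1 had 0.14 (EJ) and 0.12 (T24T) on the same scale. SRPK2, its relative, had 1149 counts in EJ circ against 1373 in EJ vector, and 1403 in T24T circ against 1341 in T24T vector, or -0.16 and -0.01. Neither was called.

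In the SR-related and speckle class 7 of 12 genes were called higher and 0 lower, beside 7.13% and 5.56% of all tested genes. As the members were picked with this contrast known, nothing is read from the count. PNN encodes pinin, a speckle protein of the exon junction periphery that also sits at desmosomes. It had 13797 counts in EJ circ against 9622 in EJ vector, and 11181 in T24T circ against 6459 in T24T vector. This was 1.53-fold in EJ and 1.64-fold in T24T (log2 fit 0.67 ± 0.08, n = 2 lines), the largest mean ratio of the 44 members. RBM5, a regulator of apoptotic gene splicing, had 4428 counts in EJ circ against 3356 in EJ vector, and 4448 in T24T circ against 3352 in T24T vector, with folds of 1.41 and 1.26. Of its exon bases 21.2% are shared, chiefly with the antisense gene RBM5-AS1, whose ratios were 0.39 (EJ) and 0.11 (T24T).

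TRA2B, a splicing activator that binds GAA-rich exons, had 3831 counts in EJ circ against 3175 in EJ vector, and 3516 in T24T circ against 2674 in T24T vector, a fold of 1.29 in EJ and 1.25 in T24T. Its paralog TRA2A was not called, with log2 ratios of 0.19 and 0.21 from counts of 583 to 882. SON, a scaffold of nuclear speckles, had ratios of 0.21 (EJ) and 0.44 (T24T) on the log2 scale, LUC7L3 of 0.22 and 0.36, ACIN1 of 0.31 and 0.32, and RBM25, a U1-associated factor, of 0.12 and 0.42, and all 4 were called higher, RBM25 not with the filter of 50 counts. The speckle scaffold gene SRRM2 (0.15 and 0.21) and SRRM1 (0.14 and 0.08), LUC7L (0.35 and 0.24) and RBM39 (0.25 and 0.11) were not called; LUC7L was called with RLE scaling and by limma-voom.

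Of the core snRNP proteins 4 of 12 were called higher and 0 lower, beside 7.13% and 5.56% of all tested genes. Of these 4, 3 belong to the U2 particle, SF3A1, SF3A3 and SF3B2. The U2 proteins SF3A2, SF3B1 and SF3B3 of the same class were not called, so no concentration in U2 is read from this. In SF3A, which with SF3B forms the U2 part that binds the branch point, SF3A3 had 5892 counts in EJ circ against 4924 in EJ vector, and 6970 in T24T circ against 5104 in T24T vector. SF3A1 had 4207 counts in EJ circ against 3419 in EJ vector, and 4802 in T24T circ against 3654 in T24T vector. Both were called higher, with folds of 1.28 in EJ and 1.30 in T24T for SF3A3 and of 1.32 and 1.25 for SF3A1. The subunit gene SF3A2 lay on the other side, with 1205 counts in EJ circ against 1517 in EJ vector, and 1513 in T24T circ against 1696 in T24T vector. Its log2 ratios were -0.23 (EJ) and -0.24 (T24T). It was not called with TMM scaling and was called lower with RLE or library-size scaling, and 12.7% of its exon bases are shared, chiefly with PLEKHJ1 on the opposite strand (log2 ratios -0.03 and -0.16).

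In SF3B the largest count of any member belonged to SF3B2, with 17625 in EJ circ against 15347 in EJ vector, and 19248 in T24T circ against 14821 in T24T vector, a log2 ratio of 0.30 in each line and a call. SF3B1, a subunit often mutated in blood cancers, had 4340 counts in EJ circ against 4514 in EJ vector, and 5008 in T24T circ against 4484 in T24T vector, with log2 ratios of 0.04 and 0.08 and no call. SF3B3 had 2898 counts in EJ circ against 2707 in EJ vector, and 4021 in T24T circ against 4139 in T24T vector. It was thus higher with circ in EJ and lower in T24T, at log2 ratios of 0.20 and -0.12.

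Among U1 and tri-snRNP genes, PRPF3, a U4/U6 protein gene, had 1409 counts in EJ circ against 1088 in EJ vector, and 1557 in T24T circ against 1227 in T24T vector. It was 1.38-fold higher in EJ and 1.20-fold in T24T and was called. The U1 protein genes SNRNP70 (log2 -0.12 in EJ and -0.05 in T24T) and SNRPA (-0.15 and -0.06), and PRPF8 (-0.07 and -0.08), which forms the catalytic centre of U5, were below 0 in both lines without a call. SNRNP200, the helicase that unwinds U4 from U6, had 0.04 and 0.20, and PRPF31 0.09 and 0.10.

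Of the snRNP-associated factors, PRPF4B, a kinase that phosphorylates tri-snRNP proteins, had 3470 counts in EJ circ against 2860 in EJ vector, and 2550 in T24T circ against 1671 in T24T vector. It was 1.30-fold higher in EJ and 1.45-fold higher in T24T and was called. U2AF2, which binds the polypyrimidine tract, had 9367 counts in EJ circ against 8102 in EJ vector, and 7438 in T24T circ against 6069 in T24T vector, with folds of 1.24 and 1.16 and a call. Its partner U2AF1, which reads the AG of the 3′ splice site, had 3092 counts in EJ circ against 2714 in EJ vector, and 3633 in T24T circ against 3161 in T24T vector, or log2 ratios of 0.28 and 0.13, without a call. A near-identical copy, U2AF1L5, held 313 counts in EJ circ against 411 in EJ vector, and 506 in T24T circ against 512 in T24T vector, so the U2AF1 value is uncertain. DDX46, the helicase that remodels U2, had 6675 counts in EJ circ against 6503 in EJ vector, and 5022 in T24T circ against 3923 in T24T vector, with log2 ratios of 0.13 and 0.28.

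The gap between the lines' log2 ratios (T24T minus EJ) was largest for SRSF6, at -0.35, then SF3B3 (-0.31), RBM25 (0.30) and SRSF2 (-0.24). SRSF6 had 1657 counts in T24T circ against 1632 in T24T vector, and 2291 in EJ circ against 1999 in EJ vector. RBM25 had 8832 counts in T24T circ against 6273 in T24T vector, and 10229 in EJ circ against 10056 in EJ vector. The difference between the lines was not tested, as each line has 1 library per transfection.

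GC content, which the choice of members did not use, differed between the classes. The longest transcript had a median of 40.6% GC in SR proteins and 43.3% in SR-related genes, against 51.6% in core snRNP proteins and 48.2% over the 14303 tested genes with a value. Across the 44 members, GC and the log2 ratio of circ over vector had a Spearman rho of -0.35 in EJ and -0.44 in T24T (Pearson r -0.41 and -0.40). Across all tested genes rho was -0.01 in EJ and -0.08 in T24T, and across the 117 other splicing genes described next it was 0.14 and -0.07. These are descriptions across genes that share libraries, with no independent replicates, and the ratios are those in view when the members were chosen, so nothing is read from them. Within the members, the 24 genes under 45% GC had median log2 ratios of 0.27 (EJ) and 0.24 (T24T), and the 20 at or above it 0.15 and 0.17.

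**Figure D3:**
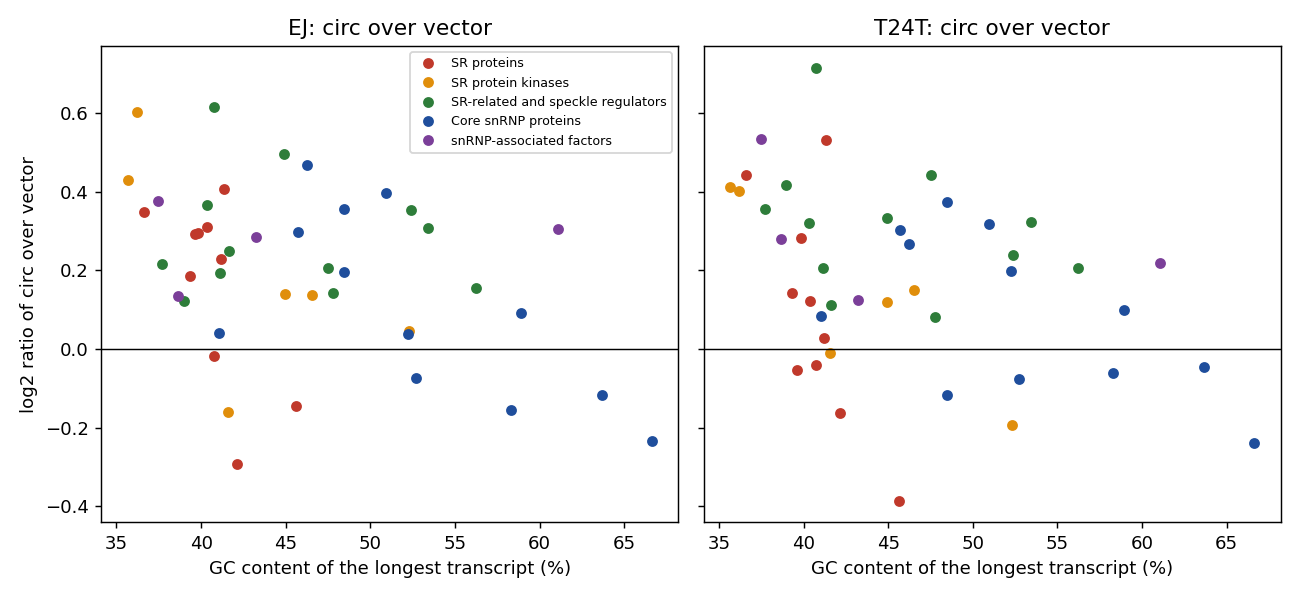
Log2 ratio of circ over vector against the GC content of the longest transcript, 1 point per member, EJ on the left and T24T on the right, coloured by class. The 4 core snRNP genes of highest GC content, SNRPA, PRPF31, SNRNP70 and SF3A2, lie between -0.24 and 0.10. U2AF2, an snRNP-associated gene at 61.1% GC, lies apart from them at 0.31 in EJ and 0.22 in T24T.

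A list of 117 other splicing genes, drawn up by function but with earlier results of this contrast known, was tested in the same edgeR fit, so its counts are not independent evidence of a direction. It gave 30 rises and 4 falls, against background shares of 7.13% and 5.56% (13.2% and 9.28% in the members' depth range). The sublist counts below are to be read beside these same shares. Its median log2 ratio was 0.11 in both EJ and T24T. DESeq2 called 12 higher and 1 lower, beside 1.05% and 0.882% of all tested genes. It gave no adjusted p to 10 of the 117 and to 11317 of all genes. Of the genes named next, DESeq2 did not call ZRANB2, SNRPD1, SNRPG, LSM8, CWC22 and PCBP2. Without the replicate block of cell line, edgeR called 0 genes of this list, with 7 at an unadjusted p under 0.05.

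RS-rich and kinase genes outside the members gave 13 rises and 0 falls among 34. SUGP1, a G-patch protein that works with SF3B1, had 1003 counts in EJ circ against 732 in EJ vector, and 874 in T24T circ against 594 in T24T vector, and rose by 0.52 ± 0.09 (log2 ± SE, n = 2 lines, edgeR adjusted p = 0.000275). CDK11B, a cyclin L partner kinase, rose by 0.39 ± 0.08 (edgeR adjusted p = 0.00115) beside its near-identical neighbour CDK11A, with which it can share reads (0.38 ± 0.08, edgeR adjusted p = 0.00206). ZRANB2, a zinc finger SR-like protein gene, rose by 0.39 ± 0.08 (edgeR adjusted p = 0.00187).

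Of the other snRNP proteins 5 of 19 rose and 0 fell. SART3, which recycles U6, rose by 0.45 ± 0.08 (edgeR adjusted p = 0.000268), the U1 protein gene SNRPC by 0.41 ± 0.09 (0.00125 by edgeR) and the U5 helicase gene DDX23 by 0.37 ± 0.08 (0.00190 by edgeR). Sm and LSm genes encode the rings around the snRNAs. Of 14, SNRPD1 rose (0.24 ± 0.08, edgeR adjusted p = 0.0431), and SNRPG (-0.32 ± 0.09, edgeR adjusted p = 0.0153) and LSM8 (-0.38 ± 0.11, edgeR adjusted p = 0.0205) fell. Of all tested genes edgeR called 12.7% in either direction, and nothing is read from the number of Sm and LSm calls. The Sm and LSm list was the 1 sublist with a median below 0 in both lines, -0.03 in EJ and -0.06 in T24T.

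In the list of helicases, step factors and proteins of the PRPF19 complex 5 of 19 rose and 0 fell. BUD31 had 4775 counts in EJ circ against 3739 in EJ vector, and 5871 in T24T circ against 3451 in T24T vector, and rose by 0.57 ± 0.08 (edgeR adjusted p = 1.89e-05). SNW1 rose by 0.43 ± 0.08 and CWC22, which loads the exon junction complex, by 0.38 ± 0.09. Among hnRNP and polypyrimidine binders, many of which oppose SR proteins at exons, 5 of 24 rose and 2 fell. Of genes in the members' depth range 13.2% were called higher and 9.28% lower, and the falls are near that share. HNRNPU (0.49 ± 0.08, edgeR adjusted p = 5.13e-05), HNRNPM (0.47 ± 0.08) and SYNCRIP (0.42 ± 0.08) led the rises. PTBP3, a paralog of the splicing repressor PTBP1, had 465 counts in EJ circ against 778 in EJ vector, and 715 in T24T circ against 961 in T24T vector, and fell by 0.57 on the log2 scale (SE 0.10, edgeR adjusted p = 0.000117). PCBP2 fell by 0.26 (SE 0.08, edgeR adjusted p = 0.0308). Of 7 minor spliceosome genes ZRSR2, the U2AF1 relative of minor introns, rose by 0.61 ± 0.09 (edgeR adjusted p = 2.15e-05).

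**Figure D4:**
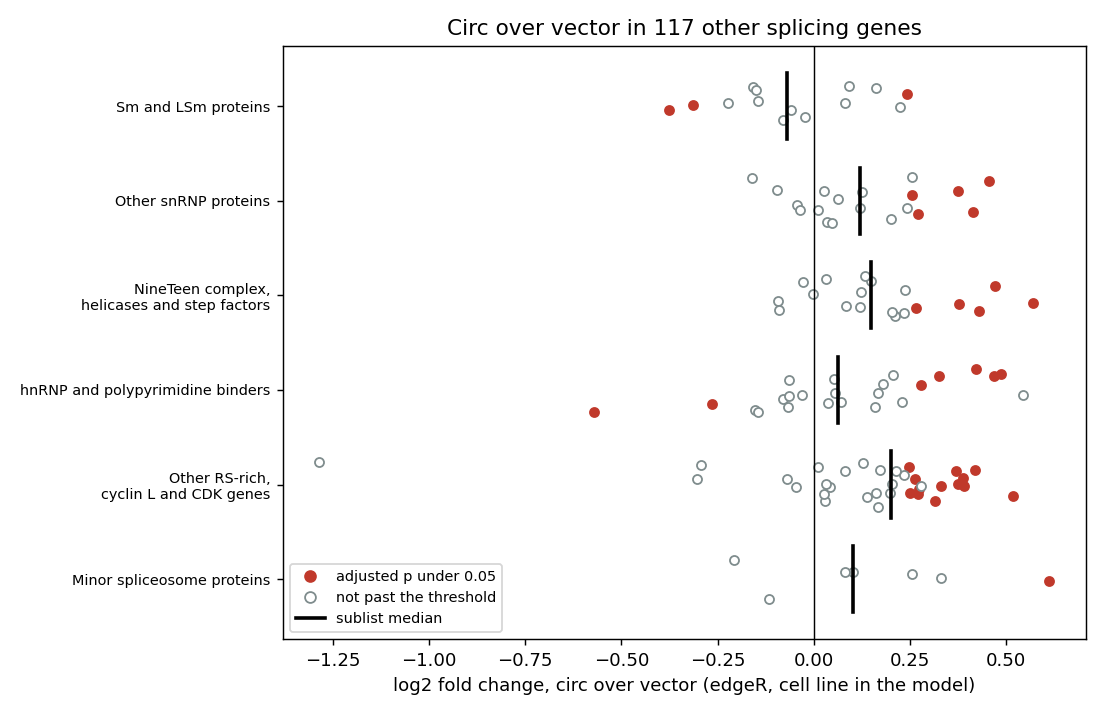
Log2 fold change of circ over vector in the 117 other splicing genes by sublist, 1 point per gene; red points have an edgeR adjusted p under 0.05 and black bars are sublist medians. The Sm and LSm list is centred below 0, and the point at the far left is SRPK3, which had 3 to 11 counts per library.

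The lines were also compared with each other in the members. The rule for the members names no contrast, so whether line differences were also in view when they were chosen is not known, and the tests below are to be read with that limit. T24T was set against EJ in the same fit with transfection in the model. Of the 44 members 19 were lower and 4 higher in T24T, against 19.5% and 21.9% of all tested genes (41.4% in either direction), and 28% and 25.5% of those in the members' depth range. DESeq2 called 16 lower and 2 higher (8.08% and 10% of all tested genes). All 23 called members lay on the same side in the vector libraries alone and in the circ libraries alone. The call was made on these same libraries and largely requires this, so it is no separate check. With transfection left out of the model 9 of the 23 were called, and PNN and SRSF11 were not among them.

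Of the 19 lower genes all but SRPK1 and PRPF31 were in the SR-related class (8 of 12 lower, 0 higher), the SR proteins (6 of 10 lower, 0 higher) and the snRNP-associated factors (3 of 4 lower), while in the core class 10 of 12 were not called; these differences between classes were not tested. GC content moved with the line contrast too, at a Spearman rho of 0.32 across the 44 members and 0.18 across all tested genes. Of the 24 members under 45% GC, 14 were lower and 1 higher in T24T, and of the 20 others 5 were lower and 3 higher, and the part of GC in these calls was not tested. LUC7L3, which associates with U1, had 5702 counts in T24T vector against 10435 in EJ vector, and 7694 in T24T circ against 11342 in EJ circ. It was lower by a log2 fold change of -0.85 ± 0.08 (edgeR adjusted p = 2.03e-10, n = 2 libraries per line). Those libraries are 1 circ and 1 vector, not replicates, so the p-values here rest mostly on spread pooled over genes. PRPF4B had 1671 counts in T24T vector against 2860 in EJ vector, and 2550 in T24T circ against 3470 in EJ circ (-0.75 ± 0.08, edgeR adjusted p = 1.02e-08). DDX46 (-0.71 ± 0.08, edgeR adjusted p = 1.63e-08), PNN (-0.58 ± 0.08, edgeR adjusted p = 4.52e-07) and RBM25 (-0.58 ± 0.08, edgeR adjusted p = 9.08e-07) followed. SRSF11 (-0.53 ± 0.08) and SRSF6 (-0.52 ± 0.09) led the SR proteins.

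Of the kinases 3 were higher and 1 lower in T24T. CLK1 had 2321 counts in T24T vector against 1412 in EJ vector, and 3256 in T24T circ against 1778 in EJ circ, and was higher by 0.66 ± 0.08 (edgeR adjusted p = 1.02e-07). CLK3 (0.35 ± 0.09, edgeR adjusted p = 0.00247) and CLK2 (0.24 ± 0.09, edgeR adjusted p = 0.0284) were also higher. SRPK1 was lower (-0.21 ± 0.08, edgeR adjusted p = 0.0458). DESeq2 called none of CLK3, CLK2 and SRPK1, and CLK4 (-0.09 ± 0.11) and SRPK2 (-0.01 ± 0.09) were not called. In the core class SF3B3 was higher (0.40 ± 0.09, edgeR adjusted p = 0.000345); between the circ libraries alone it differed by 0.25 and between the vector libraries by 0.56. It was not called by limma on log2(RPKM + 1). PRPF31 was lower (-0.44 ± 0.08, edgeR adjusted p = 3.59e-05). In the other RS-rich, cyclin L and CDK list 18 of 34 were lower and 2 higher in T24T, and in the Sm and LSm list 3 were lower and 3 higher of 14.

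**Figure D5:**
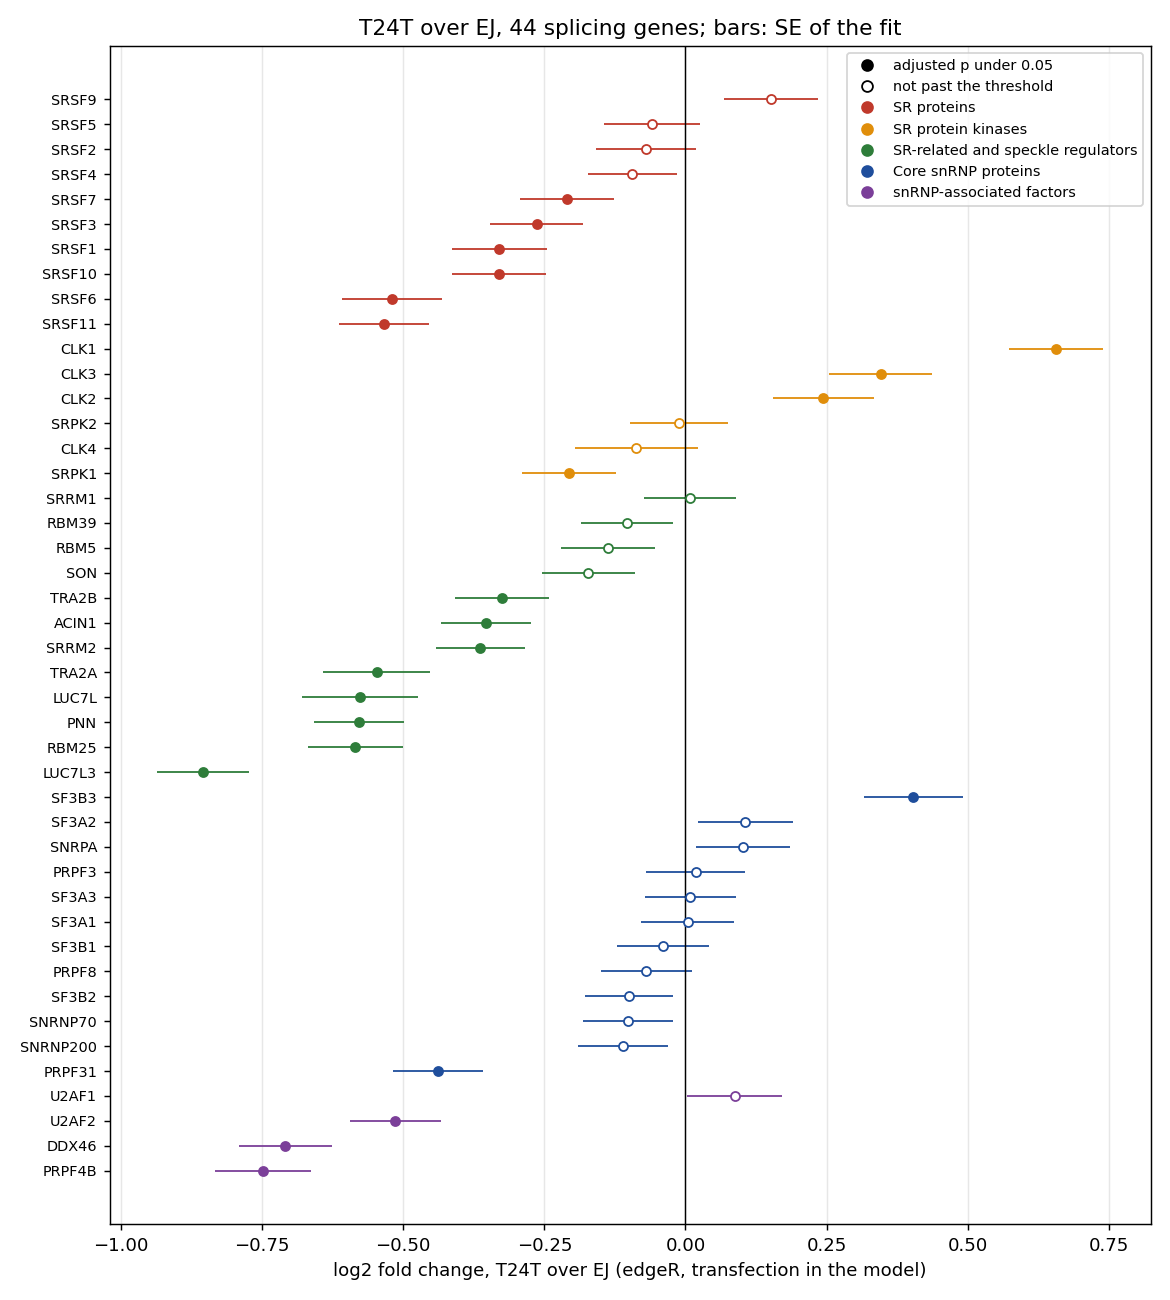
Log2 fold change of T24T over EJ for the 44 members with the SE of the edgeR fit; filled points have an adjusted p under 0.05. LUC7L3 lies farthest left at -0.85 and CLK1 farthest right at 0.66, while 10 of the 12 core snRNP genes are open points.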

How the data were processed

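RNA was measured in 4 bulk libraries, 1 per group. The authors deposited read counts for 56303 genes and RPKM for the 29817 with a read; 100% of RPKM values equalled count over length and total within a relative tolerance of 1e-06. Per the submitters' processing notes, Trimmomatic, HISAT2 and hg38 were used; the counting tool, annotation and use of strand are not given in the sources used here. The authors' gene length, in bases, was used as deposited. Columns were matched by each sample's description, in which T24T reads T24.

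Genes with 10 or more counts in a library and 20 or more in all were tested (17689) with edgeR 4.0.16 (R 4.3.3): TMM scaling, quasi-likelihood fit with line and transfection as terms, Benjamini-Hochberg adjustment over all tested genes at 0.05. Libraries of the same line form the pairs, so line is the block. The fit has 1 residual degree of freedom, so each SE rests mostly on spread pooled over genes (30.5 prior degrees of freedom), and nothing says that libraries came from separate cultures. Log2 ratios within a line used a prior count of 2, with exact 95% binomial (Clopper-Pearson) intervals that cover counting error only; totals of 14703455 to 18057768 counts set that precision. The fit was also run on counts simulated independently, with a set spread and the same change in both lines. That run cannot speak to changes that differ between the lines or to libraries from shared cultures. Alternatives were RLE or library-size scaling, other filters and prior counts, RPKM scales, DESeq2 1.42.0, limma 3.58.1, no block, single lines, and length and GC trends.

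The members and all lists were chosen with earlier results of these data known. Members given in full were, per class, those with up to 3 of the largest and 2 of the smallest absolute mean ratios among genes with 50 counts in every library, the 4 with the largest gap between lines, and up to 5 per direction by adjusted p between lines; for other splicing genes, up to 3 per direction and sublist by adjusted p. SRSF1, SRSF3, SRSF5, SRSF9, SF3A2, SF3B2 and further members are given besides to account for all 44. GC content came from GENCODE transcripts, matched by symbol for 80.9% of tested genes and all 44 members. No table of protein sequences was used here.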

Additional observations from a re-analysis of the deposited data

Results flagged for a closer look

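SF3B3 stood on opposite sides of 0 in the lines, with both counting intervals off 0. Its log2 ratio of circ over vector was -0.12 in T24T (interval -0.18 to -0.05) and 0.20 in EJ (0.12 to 0.27), a gap of -0.31 for T24T minus EJ. With 1 library per group the difference was not tested.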

How the results depend on the processing

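The counts of called genes rest on the model. DESeq2 called 7 members, 13 of the other splicing genes and 341 of all genes between circ and vector, and 3203 genes between the lines, where edgeR called 19, 34, 2246 and 7315. All 7 members were among edgeR's 19. Without the replicate block of cell line, edgeR called 0 members, 0 other splicing genes and 0 genes in all (3, 7 and 397 at an unadjusted p under 0.05), while limma fitted to log2(RPKM + 1) gave 0, 0 and 0 (21, 39 and 3588 unadjusted). Leaving transfection out of the line contrast gave 9 members and 3192 genes. With RLE, library-size scaling, limma-voom and both filters the total counts of calls stayed within 1.5 times, while members called lower with circ numbered 3 with RLE or library size, 2 with limma-voom and 0 with the filter of 50 counts, against 1. DESeq2 gave no adjusted p to 11317 of all genes between circ and vector.

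Class medians averaged over the lines kept their sign under all settings run. That of the kinases, 0.14 with lines nearly equal, moved beyond the spread of the lines to 0.13 with RLE, the stricter filter or the GC trend removed, 0.12 with library size, no filter, log2(RPKM + 0.1) or the length trend removed, and 0.10 with log2(RPKM + 1). Chosen after seeing the data, leaving out the members that share 10% or more of their exon bases put core snRNP proteins at 0.13, against 0.08 with all 12, SR proteins at 0.22 against 0.17, and SR-related genes at 0.27 against 0.28. Of 270 values of 27 named members under settings other than a single line, 250 moved by less than the spread of the lines and 20 by more, and 0 called members changed sign. Scaling shifted the median of all genes by at most 0.02 log2. The fewest counts, and the largest SEs, were those of CLK4, LUC7L and TRA2A.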
